A study of Mus musculus with 3 samples.

Results

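In the hippocampus of adult male mice, 10 genes of the NF-kappaB pathway were followed. They are the DNA-binding subunits Nfkb1, Nfkb2, Rela and Relb, the inhibitor of kappaB (IkB) proteins Nfkbia, Nfkbie, Nfkbiz and Bcl3, and the regulators of receptor ubiquitination Tnfaip3 and Birc3. They were found on the array as the probes whose gene name equals 1 of these 10 symbols, which gave 14 probes of 39429 on the array, or 10 of 24617 named genes. Of the 14 probes, 12, for 9 of the 10 genes, were well above background in all 3 pools of at least 1 group and were tested. Birc3 was not measurable.

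The offspring of older mothers (advanced maternal age, bred at 15 to 18 months) were compared with offspring of young mothers (bred at 3 months). All fathers were virgin males of 3 months, and all offspring were males killed at postnatal day 120 by cervical dislocation. Strain was not given in the sources used here, and no animal carried a stated treatment or engineered allele. Each group had 3 samples, each a pool of total RNA from the hippocampi of 3 animals, so that differences between the animals of a pool cannot be seen, and whether pools share litters is not stated. On each of 3 two-colour Agilent arrays, 1 older-mother pool labelled with Cy3 was hybridised together with 1 young-mother pool labelled with Cy5. No array had the dyes swapped, so group and dye cannot be told apart in any difference reported. Over the 3 arrays, 64.6% to 66.7% of spots were well above background in Cy3 and 71.0% to 74.9% in Cy5, and no spot was saturated. The array ratios of all probes correlated pairwise with r between 0.502 and 0.701, across probes and as a description. With 3 arrays, precision is limited throughout.

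NF-kappaB is a family of dimeric transcription factors that most cells keep in the cytoplasm, bound to IkB proteins. Signals from receptors of the tumour necrosis factor, interleukin-1 and Toll-like families activate the IkB kinase complex, IkB is degraded, and the dimers enter the nucleus and bind kappaB sites in DNA. Among the genes they switch on are their own inhibitors, Nfkbia and Tnfaip3 foremost, which ends the response. In the hippocampus the pathway is active in glia and blood vessels during inflammation, and in neurons it has been tied to synaptic activity. Nfkbia is also a known target of the glucocorticoid receptor.

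The probes of the genes on which the results turn are printed in lower case, 5′ to 3′, in the strand of the transcript, with their positions in mm9, the build named in the file headers. The Nfkbia probe lies at chr12:56590945-56591440 on the minus strand. This interval of 496 bases is longer than the 60-base probe, so the probe joins parts that are separate in the genome. The Bcl3 probe lies at chr7:20393826-20393885 on the minus strand. The Rela probe lies at chr19:5648070-5648129 on the plus strand. Exon and UTR annotation of this build was not used here.
Nfkbia probe: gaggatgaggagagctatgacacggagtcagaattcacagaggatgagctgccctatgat
Bcl3 probe: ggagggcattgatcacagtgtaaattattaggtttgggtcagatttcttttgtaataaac
Rela probe: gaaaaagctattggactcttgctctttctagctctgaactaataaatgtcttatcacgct

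The promoter windows of the 2 genes that rose, Nfkbia and Bcl3, show where the kappaB consensus stands in each. They come from RefSeq (GRCm38.p6), each holding 250 bases before and 50 bases after the annotated transcript start. The windows lie at chr12:55492598-55492897 for Nfkbia and chr7:19822706-19823005 for Bcl3, both on the minus strand, and capitals mark matches of the 10-base kappaB consensus on either strand.
Nfkbia promoter: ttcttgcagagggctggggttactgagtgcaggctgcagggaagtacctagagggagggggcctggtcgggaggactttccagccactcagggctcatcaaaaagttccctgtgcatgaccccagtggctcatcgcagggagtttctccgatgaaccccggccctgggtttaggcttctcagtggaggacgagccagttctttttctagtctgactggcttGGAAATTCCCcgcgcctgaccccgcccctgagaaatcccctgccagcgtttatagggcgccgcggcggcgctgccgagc
Bcl3 promoter: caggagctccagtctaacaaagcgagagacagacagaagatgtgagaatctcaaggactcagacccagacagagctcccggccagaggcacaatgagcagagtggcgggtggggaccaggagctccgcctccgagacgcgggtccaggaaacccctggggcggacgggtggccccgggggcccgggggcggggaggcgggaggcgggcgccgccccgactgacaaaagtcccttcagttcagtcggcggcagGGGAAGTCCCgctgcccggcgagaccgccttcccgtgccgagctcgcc

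Of the 9 measured genes, 2 rose in the offspring of older mothers, and none fell. Nfkbia, which encodes IkB-alpha, the inhibitor that holds Rela-containing dimers in the cytoplasm, was 1.78-fold higher. Bcl3, an atypical IkB protein that enters the nucleus and binds dimers of the Nfkb1 and Nfkb2 products, was 1.80-fold higher. The other 7 genes did not pass the test and had mean log2 ratios of at most 0.16 in either direction. Of all 17964 genes measured, 7.34% were called higher and 12.2% lower by the same test, limma with a Benjamini-Hochberg adjusted p under 0.05. A count of 2 of 9 upward and 0 of 9 downward is too small to be read as different from that background. All older-mother pools lay above all young-mother pools for 3 of the 9 genes (Nfkbia, Bcl3 and Rela), which 16.7% of all genes also showed, and below them for 1 (Nfkbie), which 26.0% of all genes showed. At an unadjusted limma p under 0.05, Rela was also higher and Nfkbie also lower. Of all 17964 genes, 7091 reached that level in either direction, so it does not set these genes apart.

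**Figure D1:**
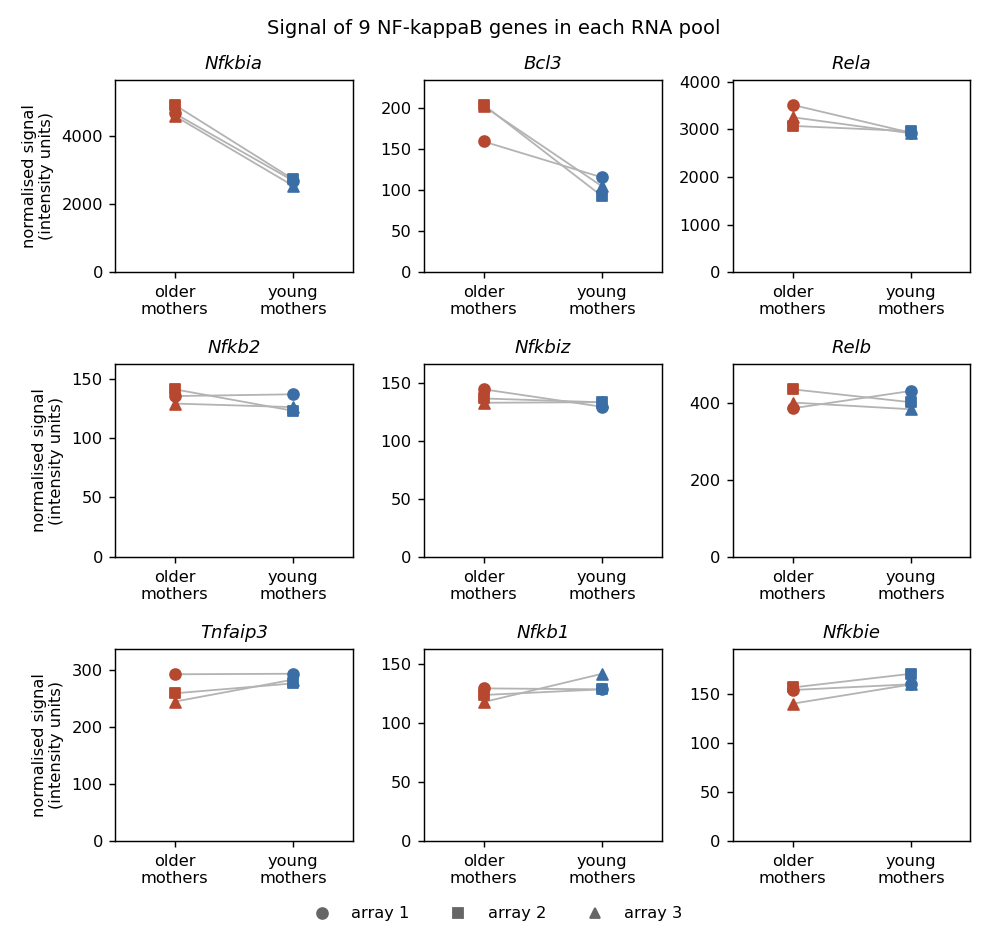
Normalised signal (intensity units, vertical axis from 0, a separate scale for each gene) of the 9 measured genes in each RNA pool, with older-mother pools on the left, young-mother pools on the right, and a line joining the pools of 1 array; the brightest probe of each gene is shown. The older-mother pools of Nfkbia (4579 to 4902) and Bcl3 (159 to 204) lie clear of the young-mother pools (2533 to 2724 and 92.5 to 115), those of Rela and Nfkbie are separate by a small gap, and the other 5 genes overlap.

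The Nfkbia ratio was nearly the same on all arrays. Its normalised signal was 4651, 4902 and 4579 in the older-mother pools of arrays 1, 2 and 3, against 2680, 2724 and 2533 in the young-mother pools. The lowest older-mother pool lay far above the highest young-mother pool, and pools within a group differed little, with means of 4711 ± 170 and 2646 ± 100 (SD, n = 3 pools each). On the log2 scale, older over young mothers gave 0.80, 0.85 and 0.85 on the 3 arrays, a mean of 0.83 ± 0.03 (SD, n = 3 arrays; 95% interval 0.72 to 0.94; limma adjusted p = 0.0113). Among the 17964 genes, Nfkbia ranked 64 from the highest log2 ratio and 5 from the smallest p. It passed the test under all 14 alternative ways of processing (limma adjusted p from 0.00121 to 0.0486), and its log2 ratio stayed between 0.82 and 0.85 in 13 of them. Some of these leave the ratio unchanged by construction: the other filters, trend and robust variance, separate channels, and the mean over its only probe. Under median centring of each array, which moves the median of all genes to -0.40 on the log2 scale, the Nfkbia ratio was 0.20, or 0.61 above that median (limma adjusted p = 0.00718).

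Bcl3 rose by a similar mean amount, but unevenly. Its normalised signal was 159, 204 and 202 in the older-mother pools, against 115, 92.5 and 104.5 in the young-mother pools. The groups did not overlap, with means of 188 ± 25.2 and 104 ± 11.5 (SD, n = 3 pools each), and the array 1 pools lay closest together. The log2 ratio was 0.46, 1.14 and 0.95 on the 3 arrays, a mean of 0.85 ± 0.35 (SD, n = 3 arrays; 95% interval 0.53 to 1.18; limma adjusted p = 0.0201). Bcl3 ranked 61 from the highest ratio but 834 from the smallest p. Without replicate 3 the ratio was 0.80 and the call was lost (limma adjusted p = 0.0660, against 0.000287 to 0.0398 under the other 13 alternatives), and across the array 26 genes were then called higher and 0 lower by limma (5613 genes at an unadjusted p under 0.05). The young-mother signal of Bcl3 is low, though well above background on all arrays, and the size of the Bcl3 ratio also moved with the processing. It was 1.13 with an offset of 16 and 0.82 with no background correction, against 0.85 as reported with an offset of 50. With Agilent's processed signals, which differ in both background and dye correction, it was 1.91.

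**Figure D2:**
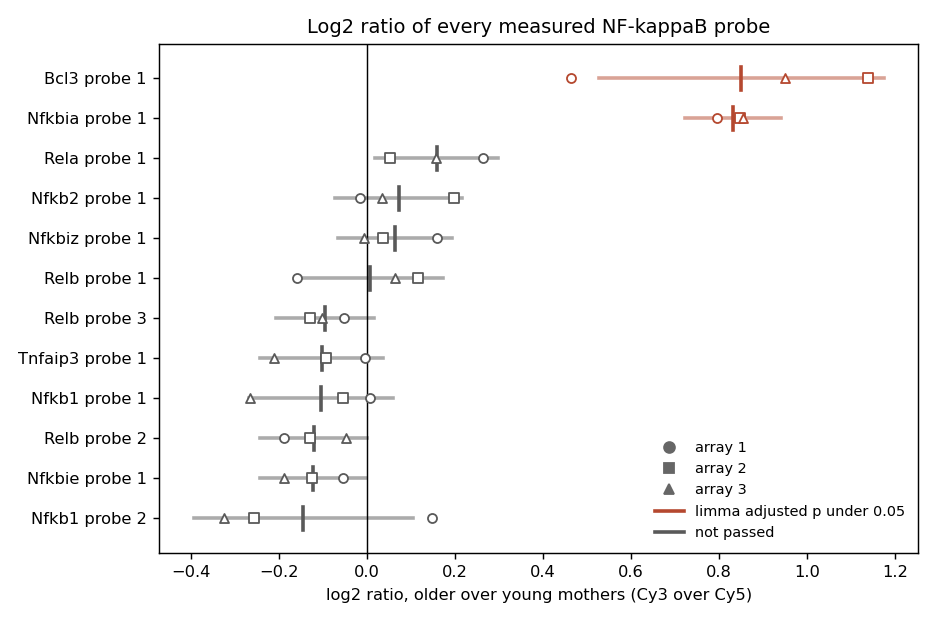
Log2 ratio, older over young mothers (horizontal axis), for the 12 measured probes, 1 row per probe; symbols are the 3 arrays, vertical ticks the means and horizontal bars the 95% intervals of limma. Nfkbia and Bcl3 stand at 0.83 and 0.85 with all arrays above 0, while every other probe has a mean between -0.14 and 0.16.

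Among the DNA-binding subunits, only Rela had pools that did not overlap. It encodes p65, a subunit with its own transactivation domain that forms the classical dimer with the Nfkb1 product p50. Its normalised signal was 3514, 3073 and 3255 in the older-mother pools, against 2927, 2963 and 2917 in the young-mother pools. The young-mother pools were nearly equal, and the 3 older-mother pools stood above them by differing amounts. The log2 ratios of 0.26, 0.05 and 0.16 averaged 0.16 ± 0.11 (SD, n = 3 arrays; 95% interval 0.02 to 0.30), with an unadjusted limma p of 0.0335 and an adjusted p of 0.101. Under median centring the Rela ratio turned to -0.46 (limma adjusted p = 0.000368), which is 0.06 below the median of all genes under that setting.

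Nfkb1, the gene of p105 and its processed form p50, had 2 probes on chromosome 3. The brighter one, at chr3:135247621-135247680, gave 129.6, 124 and 118 in the older-mother pools, against 128.8, 128.8 and 142 in the young-mother pools. These overlapped, and the mean log2 ratio was -0.10 ± 0.14 (SD, n = 3 arrays; limma adjusted p = 0.288). The second probe, at chr3:135254550-135254609, gave -0.14 ± 0.26 on the log2 scale (SD, n = 3 arrays; limma adjusted p = 0.328), with 0.15 on array 1 and -0.26 and -0.33 on the other arrays. In the older-mother pools it was not well above background on any array. The groups overlapped, with mean signals of 92.1 in the older-mother pools and 102 in the young-mother pools.

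Nfkb2, which encodes p100 and p52 of the non-canonical branch, was measured by a probe at chr19:46386146-46386285, which spans 140 genomic bases. The signal was 135.3, 141 and 129 in the older-mother pools, against 136.8, 122.9 and 126 in the young-mother pools. The groups overlapped, and the log2 ratio of 0.07 ± 0.11 (SD, n = 3 arrays; 95% interval -0.07 to 0.22; limma adjusted p = 0.393) did not pass.

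Relb, the partner of p52 in the non-canonical dimer, had 3 probes that all overlapped between the groups. The brightest, at chr7:20191722-20191781, gave 386.8, 436.3 and 401.9 in the older-mother pools, against 432.1, 402.6 and 384.3 in the young-mother pools. Its ratio was below 0 on array 1 and above 0 on arrays 2 and 3, with a mean log2 ratio of 0.01 ± 0.15 (SD, n = 3 arrays; 95% interval -0.16 to 0.17; limma adjusted p = 0.948). The second probe, at chr7:20191773-20191832, had a log2 ratio of -0.12 ± 0.07 (SD, n = 3 arrays; limma adjusted p = 0.132). The third, at chr7:20203058-20203117, had -0.10 ± 0.04 (SD, n = 3 arrays; limma adjusted p = 0.175). The sign for Relb therefore rests on the probe: 1 of 3 is at about 0 and 2 of 3 are below 0 on every array. All 3 probes read the same RNA pools on the same arrays, so none is independent of the others. The first 2 also overlap, since the end of the second repeats the start of the first over 9 bases, shown in capitals.
Relb second probe: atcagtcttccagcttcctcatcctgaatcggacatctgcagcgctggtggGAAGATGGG
Relb first probe: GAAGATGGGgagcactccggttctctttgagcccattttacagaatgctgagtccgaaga

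Relb and Bcl3 are near neighbours on chromosome 7, with 190708 bases between their nearest probes in mm9. Of 10 protein-coding genes listed between them in RefSeq (GRCm38.p6), 8 were measured. None of the 8 rose and 3 fell by limma's test, with log2 ratios between -0.39 and 0.11. Of all genes measured, 7.34% were called higher and 12.2% lower. Counts among 8 genes are too small to be read as a result about that stretch.

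The remaining inhibitors did not follow Nfkbia. Nfkbie encodes IkB-epsilon, a cytoplasmic inhibitor that like IkB-alpha is made in response to NF-kappaB itself. Its probe at chr17:45700000-45700059 gave 154, 157 and 140 in the older-mother pools, against 160, 171 and 160 in the young-mother pools. All 3 older-mother pools lay below all young-mother pools, by little. The log2 ratio was -0.05, -0.12 and -0.19 on the arrays, a mean of -0.12 ± 0.07 (SD, n = 3 arrays). Its limma p was 0.0479 before adjustment, and the adjusted p was 0.126.

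Nfkbiz encodes IkB-zeta, a nuclear cofactor needed in mouse macrophages for induction of Il6 and Lcn2. Its probe at chr16:55817859-55817918 gave 144.5, 136.6 and 132.9 in the older-mother pools, against 129.4, 133.3 and 133.4 in the young-mother pools. The ranges overlapped, and the log2 ratio of 0.06 ± 0.09 (SD, n = 3 arrays; limma adjusted p = 0.408) did not pass.

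Tnfaip3 encodes A20, an enzyme that edits ubiquitin chains on receptor complexes and so ends signalling to the IkB kinases. At chr10:18720776-18720835 it gave 293, 259.6 and 245 in the older-mother pools, against 293.9, 277 and 283.7 in the young-mother pools. The array 1 pools were equal and the older-mother pools of arrays 2 and 3 were lower, so that the ranges overlapped. The log2 ratio was -0.10 ± 0.10 (SD, n = 3 arrays; 95% interval -0.24 to 0.04; limma adjusted p = 0.227). That interval does not reach the one of Nfkbia (0.72 to 0.94), the other textbook feedback target of NF-kappaB; the difference itself was not tested.

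Birc3, a ubiquitin ligase of tumour necrosis factor receptor complexes, had 2 probes, at chr9:7856162-7856221 and chr9:7854409-7854468. The first gave 83.3, 79.7 and 84.1 in the older-mother pools and 82.2, 84.6 and 79.7 in the young-mother pools. It was not well above background in any pool. The second gave 88.9, 70.3 and 80.6 in the older-mother pools and 82.6, 82.1 and 82.4 in the young-mother pools, and was well above background in 1 young-mother pool only. No ratio is given for Birc3.

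The kappaB consensus stood in the promoter windows of both genes that rose and also of 3 genes that did not pass. Whether it goes with a rise was not tested, and the genes with a window are too few for that. RefSeq windows were found for 7 of the 10 genes, not for Nfkbiz, Nfkb1 and Relb, and 5 of the 7 held a match: Nfkbia, Bcl3, Nfkbie, Tnfaip3 and Nfkb2. Rela and Birc3 held none. Of all 27025 genes with a window, 9.55% held a match, and of all 32851 windows 8.46%. The match in Nfkbia begins 29 bases before the transcript start, that in Bcl3 begins 2 bases after it and reads on both strands. Nfkbie has its match 106 bases before the start, Tnfaip3 has matches 125 and 12 bases before it, and Nfkb2, in the first of its 3 windows, has overlapping matches 39 and 38 bases before it and another 11 bases before it. The sites of 3 genes that hold the consensus and did not pass the test are printed with flanking bases for comparison with the windows above, capitals marking the match, the Tnfaip3 and Nfkb2 sites being those 12 and 39 bases before the start.
Nfkbie site: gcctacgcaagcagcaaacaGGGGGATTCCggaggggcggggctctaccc
Tnfaip3 site: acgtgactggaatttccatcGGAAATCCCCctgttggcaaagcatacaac
Nfkb2 site: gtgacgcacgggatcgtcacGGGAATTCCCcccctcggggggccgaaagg

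The rest of the pathway was examined through lists of genes by role, 1 probe per gene, with the same test. By that test 7.34% of all genes measured were called higher and 12.2% lower. The counts of each list stand beside these shares and were not tested against them, so a called gene is not by itself a result about its list. Across the 10 genes above, the 9 measured had a median log2 ratio of 0.06, against -0.03 for all genes. Of 4 further subunits and IkB proteins, 3 were measured and none passed. Nfkbib (IkB-beta) had a log2 ratio of -0.05 ± 0.09 and Nfkbid (IkB-NS) of -0.15 ± 0.23 (SD, n = 3 arrays each; limma adjusted p = 0.544 and 0.273), and Rel, the c-Rel subunit, was not well above background.

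Of 21 ligands and receptors that feed the pathway, 15 were measured, of which 3 rose, 1 fell and 11 did not pass, with a median log2 ratio of 0.08. Tnfrsf12a, the receptor of the cytokine TWEAK, had a signal of 568, 552 and 548 in the older-mother pools, against 317, 333 and 322 in the young-mother pools. Its log2 ratio of 0.78 ± 0.06 (SD, n = 3 arrays; limma adjusted p = 0.0117) was close to that of Nfkbia. The endotoxin receptor Tlr4 (log2 ratio 0.24 ± 0.05; limma adjusted p = 0.0293) and the interleukin-1 receptor Il1r1 (0.27 ± 0.09; adjusted p = 0.0293) rose by less. Tnfrsf11a, the receptor RANK, fell by 0.28 ± 0.08 on the log2 scale (limma adjusted p = 0.0249). The ligands Tnf and Il1b were among the 6 genes of the list not well above background.

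Of 31 adaptors and kinases, 29 were measured, of which 1 rose, 3 fell and 25 did not pass, with a median log2 ratio of 0.01. Birc2, a ubiquitin ligase closely related to Birc3, rose by 0.23 ± 0.05 on the log2 scale (SD, n = 3 arrays; limma adjusted p = 0.0306). Rnf31, the catalytic subunit of the ligase that builds linear ubiquitin chains, fell by 0.46 ± 0.03 (limma adjusted p = 0.0132), and its second probe fell by 0.39 (adjusted p = 0.0152). Btrc, which marks phosphorylated IkB for degradation, fell by 0.31 ± 0.04 (limma adjusted p = 0.0188). Tab1, a partner of the kinase Map3k7, fell by 0.30 ± 0.05 (limma adjusted p = 0.0201). The IkB kinase genes Chuk, Ikbkb and Ikbkg had log2 ratios of 0.08, -0.06 and 0.01 (limma adjusted p = 0.318, 0.353 and 0.933).

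Of 19 other negative regulators, 18 were measured, of which 1 rose, 3 fell and 14 did not pass, with a median of -0.01. Otud7b, a deubiquitinase that acts on Traf3, rose by 0.46 ± 0.10 on the log2 scale (SD, n = 3 arrays; limma adjusted p = 0.0160). Trib3, a pseudokinase, fell by 0.41 ± 0.10 (limma adjusted p = 0.0176), and Sigirr, a decoy-like member of the interleukin-1 receptor family, fell by 0.28 ± 0.09 (adjusted p = 0.0267). Cyld, a deubiquitinase, fell by 0.34 ± 0.06 on its brightest probe (limma adjusted p = 0.0185), but another probe gave 0.03 (adjusted p = 0.661), so its probes disagree. Tnip1, which works with A20, had a log2 ratio of -0.13 ± 0.14 (limma adjusted p = 0.206).

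**Figure D3:**
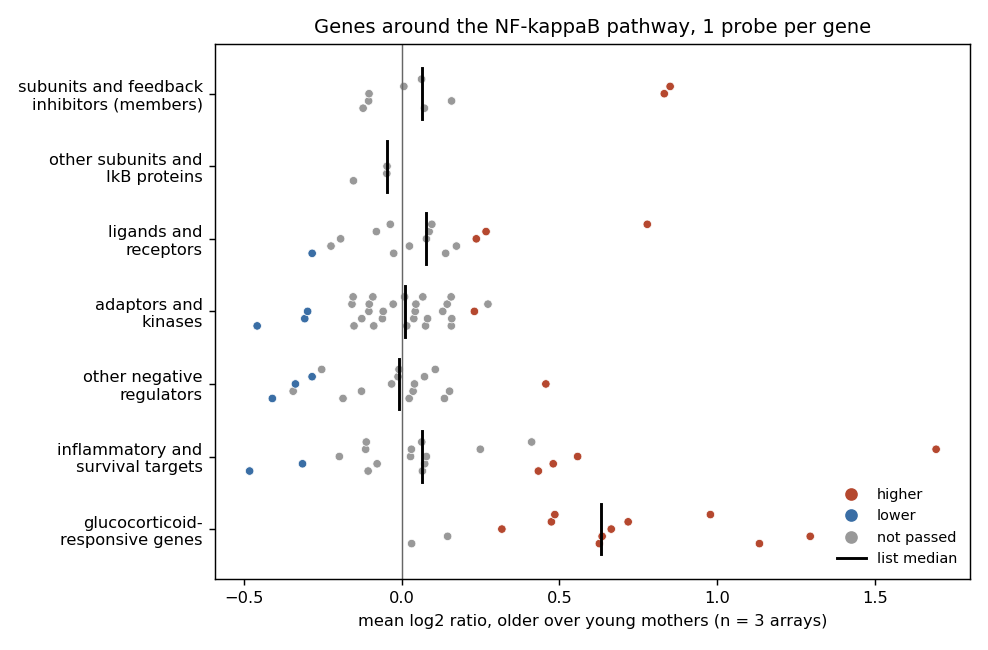
Mean log2 ratio, older over young mothers (horizontal axis, n = 3 arrays) for each measured gene, 1 row per list of genes; colours give the call and black ticks the list medians. Medians of the NF-kappaB lists lie between -0.05 and 0.08, and that of the glucocorticoid-responsive genes is 0.63. The lists were chosen with earlier results of these data known, so the contrast is not independent evidence.

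Of 34 inflammatory and survival targets of NF-kappaB, 19 were measured, of which 4 rose, 2 fell and 13 did not pass, with a median log2 ratio of 0.06. Another 13 were not well above background, among them the adhesion gene Icam1, and 2 had no probe of that name. Lcn2, an iron-binding protein secreted by reactive astrocytes among other cells, had a signal of 685, 1953 and 1468 in the older-mother pools, against 368, 453 and 348 in the young-mother pools. Its pools did not overlap, and its log2 ratio was 1.69 ± 0.69 (SD, n = 3 arrays; limma adjusted p = 0.0189). The transcription factor Cebpb rose by 0.48 ± 0.09 (limma adjusted p = 0.0148) and the stress gene Gadd45b by 0.56 ± 0.18 (adjusted p = 0.0176). Tissue factor, F3, rose by 0.43 ± 0.13 on its brightest probe (limma adjusted p = 0.0185), with 0.23 on another that did not pass (adjusted p = 0.112). The 2 that fell, named after their values were seen, were the interferon-responsive genes Irf1, by 0.31 ± 0.13, and Cxcl10, by 0.48 ± 0.25 (limma adjusted p = 0.0296 and 0.0316), Cxcl10 being well above background in 1 older-mother pool only. The chemokine Ccl2 had a log2 ratio of 0.06 ± 0.07 (limma adjusted p = 0.383).

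Nfkbia also belongs to the genes that glucocorticoids induce. Another 13 genes were listed as glucocorticoid-responsive, among them the receptor genes Nr3c1 and Nr3c2. Of the 12 measured, 10 rose, none fell and 2 did not pass, with a median log2 ratio of 0.63, against -0.03 for all genes. The 2 that did not pass were the receptor genes Nr3c1 and Nr3c2, with log2 ratios of 0.03 and 0.15. Sgk1, a kinase that acts on ion channels, had 0.98 ± 0.11, and Tsc22d3, whose product GILZ binds Rela, had 1.13 ± 0.22 on the log2 scale (SD, n = 3 arrays; limma adjusted p = 0.0117 and 0.0124). Errfi1, a brake on the EGF receptor, had 0.66 ± 0.06, and the zinc-finger gene Zbtb16 had 0.64 ± 0.04 (limma adjusted p = 0.0124 for each). The list was chosen with earlier results of these samples known and is not independent evidence of its direction. Without replicate 3, 1 gene of the list rose, and under median centring 3 rose and 1 fell.

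The 5 genes whose 3 array ratios lay nearest to those of Nfkbia, out of 17964, were Dnaja1, Xbp1, Adam8, Tnfrsf12a and Gadd45g. Dnaja1, a co-chaperone, gave 0.83, 0.85 and 0.81 as its array ratios (log2), at a Euclidean distance of 0.0535. Xbp1, a transcription factor of the unfolded protein response, had 0.73, 0.85 and 0.80 at a distance of 0.0816. Adam8, a membrane protease, lay at a distance of 0.119, Tnfrsf12a at 0.155 and Gadd45g, a stress gene related to Gadd45b, at 0.202. Likeness over 3 arrays says only that the ratios are close.

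Markers of cell types were read beside these results, since in bulk tissue fewer cells of a type and less RNA per cell cannot be told apart. Their counts, too, stand beside the 7.34% of all genes called higher and the 12.2% called lower, and were not tested against them. Of 9 markers of hippocampal neurons, all measured, none rose and 2 fell, with a summed signal of 73590 to 76640 in the older-mother pools, against 76430 to 81500 in the young-mother pools. One that fell, Rbfox3, had other probes at -0.16 and -0.06 on the log2 scale (limma adjusted p = 0.0692 and 0.509). Such sums follow the brightest gene of a list most, here Snap25, at 39740 to 40920 in the older-mother pools. Of 7 microglial markers, 1 rose (C1qa) and 1 fell (Cx3cr1), with sums of 21180 to 22400 and 20620 to 21540 in the older-mother and young-mother pools. Other Cx3cr1 probes gave log2 ratios of -0.34 and -0.04 (limma adjusted p = 0.0257 and 0.752), so its probes disagree. Of 5 astrocyte markers 1 rose (Gfap), with sums of 16700 to 18060 and 16170 to 16560 in the older-mother and young-mother pools. Other Gfap probes gave 0.28 and -0.16 (limma adjusted p = 0.0289 and 0.246). Of 4 oligodendrocyte markers none passed, with sums of 54130 to 73380 and 52110 to 57600 in the older-mother and young-mother pools. Of 6 endothelial markers 1 rose (Flt1) and 1 fell (Cldn5), with sums of 11610 to 14440 and 11530 to 13700 in the older-mother and young-mother pools. Other Flt1 probes gave 0.18 and -0.09 and did not pass (limma adjusted p = 0.0504 and 0.413).

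Of 6 blood leukocyte markers, 5 were measured and 3 rose (S100a9, S100a8 and Ptprc), with sums of 1256 to 1456 in the older-mother pools, against 1042 to 1333 in the young-mother pools. The young-mother signals of S100a8 (84.9, 82.0 and 70.8) and S100a9 (121, 105 and 78.5) were near background. S100a8 was well above background in only 2 young-mother pools. The B-cell marker Ms4a1 was not well above background. Choroid plexus markers were lower in the older-mother pools, with all 6 means below 0, 1 past the test and sums of 8674 to 66900, against 76830 to 112800 in the young-mother pools. The 1 past the test, Kcnj13, did not pass on another probe (log2 ratio -1.42, limma adjusted p = 0.0727). Leptomeningeal markers had all 5 means below 0, of which 3 fell by the test, with sums of 4943 to 8031 in the older-mother pools, against 6414 to 8114 in the young-mother pools. Red cell markers had all 3 means below 0, of which 1 fell, with sums of 12770 to 14030 in the older-mother pools, against 13670 to 15570 in the young-mother pools. The older-mother pool of array 2 had the lowest of the choroid plexus sums, and without that array Nfkbia and Bcl3 had log2 ratios of 0.82 and 0.71 (limma adjusted p = 0.00781 and 0.0329). Leaving it out did not remove the choroid plexus difference. On arrays 1 and 3 the sums were 25320 and 66900 in the older-mother pools, against 76830 and 102200 in the young-mother pools. Each sum follows its brightest gene most. In the older-mother pools Ttr gave 6763 to 60630, Cd3e 759 to 838, Dcn 3883 to 6438 and Hba-a1 11670 to 12830. None of these genes passed the test. The part of these cell types in the NF-kappaB results was not tested.

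The processing of the arrays moved both calls and sizes. Of 126 values, 9 genes under 14 alternatives each, 112 kept both direction and side of the threshold, 10 changed sign, 3 newly passed with the same sign and 1 no longer passed. The other filters, trend and robust variance, and separate channels leave the ratios of these genes as reported by construction. Under them only the p could move. Of the 10 that changed sign, 2 also newly passed, which makes 5 new calls, all under median centring. Among the sign changes, 7 were those of Relb, whose ratio is near 0. The calls of Rela, Relb and Tnfaip3 as lower and of Nfkb2 and Nfkbiz as higher were these 5. The ratio of Nfkbia itself spanned 0.648 on the log2 scale over the alternatives, next to 0.674 for Rela and 1.20 for Bcl3, and the other 6 genes spanned 0.197 to 0.457. Relative to the shifted median of all genes, Rela, Relb and Tnfaip3 stood at -0.06, 0.04 and 0.05 on the log2 scale under median centring. Nfkb2 stood at 0.63, Nfkbiz at 0.60 and Nfkb1 at 0.47 above that median, Nfkbie at 0.31 and Bcl3 at 1.36, beside 0.61 for Nfkbia. A single median for all genes, unlike loess, takes no account of signal level. Mean older-mother signals were 135, 138, 124, 150 and 188 for Nfkb2, Nfkbiz, Nfkb1, Nfkbie and Bcl3. They were 266 for Tnfaip3, 408 for Relb, 3281 for Rela and 4711 for Nfkbia. As reported, with loess, Nfkb2 and Nfkbiz had log2 ratios of 0.07 and 0.06 and did not pass.

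**Figure D4:**
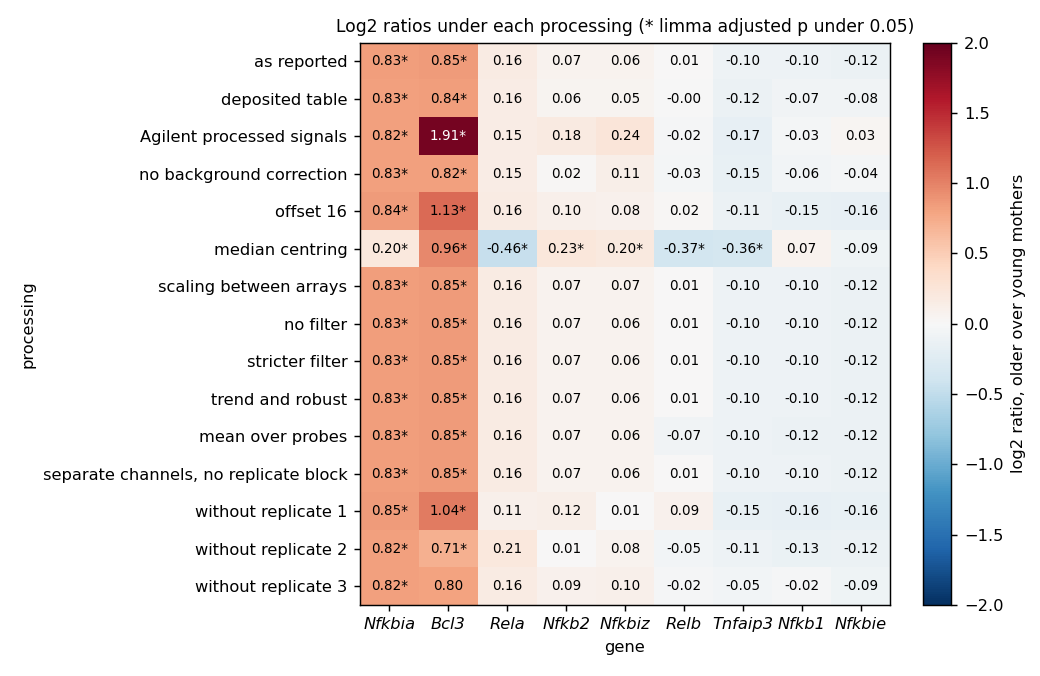
Log2 ratio, older over young mothers, for the 9 measured genes (columns) under the reported and 14 alternative ways of processing (rows), with colour and number giving the ratio and an asterisk a limma adjusted p under 0.05. Nfkbia passes in every row, at 0.20 under median centring and between 0.82 and 0.85 elsewhere, and Bcl3 passes in every row but the one without replicate 3.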

How the data were processed

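Per the file headers, the scanner files come from Agilent Feature Extraction 10.10.1.1, with mean spot and median background intensity, processed intensity, and flags of another kind (0 or 1). Values in the deposited table are log2 of Cy3 over Cy5; normexp with offset 50 and loess on median signals gave the same values within 5.0e-10.

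Mean signals were corrected by normexp (offset 50), which pulls ratios of dim probes towards 0, and balanced by loess (span 0.3) within arrays, with weight 0 for control, non-uniform and outlying spots, in limma 3.58.1 (R 4.3.3). Normalised signals are after Aquantile scaling. Of 39429 probes, 27630 were kept, for which every array was well above background in Cy3, or every array in Cy5. Log2 ratios were tested with an intercept (lmFit and eBayes, two-sided, 2 residual plus 3.42 prior degrees of freedom, Benjamini-Hochberg over all kept probes). All arrays share 1 slide and scan. Levels and calls of a gene are those of its brightest kept probe. The fit was also run on simulated signals with known changes. There the dye difference was the same for all probes and spreads were shuffled among probes on each array. That run therefore does not bear on dye effects of single probes.

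The members and lists were chosen with earlier results of these data known. Named are all members, up to 4 genes per list with the smallest p and 1 sign on all arrays, Rel, Nfkbib, Nfkbid, Chuk, Ikbkb, Ikbkg, Tnf, Il1b, Tnip1, Cyld, Tsc22d3, Icam1 and Ccl2, and the 5 genes nearest to Nfkbia. Alternatives were the deposited table, Agilent's processed signals, no background correction, offset 16, median centring, scaling between arrays, no filter, a stricter filter, trend and robust variance, the mean over probes, separate channels, a threshold of 0.1 (counts only) and leaving out each replicate.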

Additional observations from a re-analysis of the deposited data

How the results depend on the processing

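The numbers pair pools because each array holds 1 older-mother and 1 young-mother pool. With separate channels and no replicate block, the ratios of Nfkbia (0.83) and Bcl3 (0.85) are the same by construction, and only the p could move. Both genes kept their calls, and of the inflammatory targets 0 fell. Median centring gave 4 members higher and 3 lower, 3198 genes higher and 12100 lower, with Nfkb1 at 0.0697, Rela at -0.46, Relb at -0.37, Tnfaip3 at -0.36, Nfkb2 at 0.23 and Nfkbiz at 0.20 on the log2 scale. The median of all genes was then -0.40, and the cause of the shift was not tested. Its list counts were 3 higher and 22 lower for adaptors and kinases, 7 and 6 for ligands and receptors, 4 and 13 for other negative regulators, 10 lower for inflammatory targets, 3 lower for other subunits, and 3 higher and 1 lower for glucocorticoid-responsive genes.

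Agilent's processed signals gave 655 genes higher and 1002 lower, Nfkbie at 0.0343 and Relb at -0.0183, with 0 adaptors higher, 0 receptors lower and 0 inflammatory targets lower. Relb was -0.00193 in the deposited table, -0.0699 as the mean over probes and -0.0337 without background correction. Without background correction and with the mean over probes, 3 adaptors rose and 2 receptors fell. The stricter filter left 1 inflammatory target lower. A threshold of 0.1 gave 2310 genes higher and 3724 lower, 6 adaptors higher and 6 lower, 2 receptors lower and 5 negative regulators lower.

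Leaving out 1 replicate gave 1 to 2 members higher, 26 to 897 genes higher and 0 to 1412 lower, and a Relb ratio of -0.0477 to 0.0902; Bcl3 was at 0.71 to 1.04. Calls ranged from 0 to 3 lower for adaptors (0 higher), 0 to 2 higher for receptors (0 lower), 0 to 1 higher and 0 to 3 lower for negative regulators, 0 to 5 higher and 0 to 1 lower for inflammatory targets, and 1 to 9 higher for glucocorticoid-responsive genes. Fewer arrays leave fewer degrees of freedom. Signals near background limit Bcl3, Nfkb1, Nfkb2, Nfkbie, Nfkbiz and Birc3. Some list genes that were called are about as dim, among them Tlr4 and Trib3.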

Other observations

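The array 1 ratio of Bcl3 was the lowest of its 3, and the same held for some other genes that rose, picked after their values were seen. On arrays 1, 2 and 3, Bcl3 had log2 ratios of 0.46, 1.14 and 0.95, Lcn2 had 0.90, 2.11 and 2.08, Cdkn1a had 0.87, 1.55 and 1.47, and Tsc22d3 had 0.90, 1.32 and 1.18. Nfkbia also had its lowest ratio on array 1, by little, with 0.80, 0.85 and 0.85. Other genes that rose had their highest ratio on array 1. Among them were Gadd45b with 0.75, 0.53 and 0.40, Cebpb with 0.58, 0.43 and 0.43, and Tnfrsf12a with 0.84, 0.73 and 0.77. How many of all genes that rose go each way was not counted. For Bcl3, Lcn2, Cdkn1a and Tsc22d3 the array 1 pools lay closer together than those of the other arrays. The 3 ratios of a gene are too few for a test of likeness.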
